A study of Mus musculus with 4 samples.

Results

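The bone morphogenetic protein (BMP) genes *Bmp1*, *Bmp2*, *Bmp4*, *Bmp5*, *Bmp6*, *Bmp7* and *Bmp10* were compared between the dorsal and ventral parts of the mouse tracheoesophageal anlage at E9.75. They were chosen by name, with earlier results of these data known. Every probe set whose only gene symbol in the platform annotation was one of the 7 was taken, which gave 13 of the 45101 probe sets on the array. The anlage is the foregut tube from which the esophagus and the trachea with the lungs later separate, and the lung bud has just begun to swell on its ventral side. Embryos of the BALB/c strain were used, and the tube between the hind end of the pharynx and that of the lung bud was cut by hand under a microscope into both parts. There were 2 dorsal and 2 ventral arrays, each made from 100 ng of total RNA and described as biological replicates. How many embryos or litters went into each array was not stated, and the p-values therefore reflect no more than the variation from array to array. Each sample held epithelium and mesenchyme together, and in such samples fewer cells of a type cannot be told apart from less RNA per cell.

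BMPs are secreted dimers that bind pairs of type I and type II receptor kinases and lead to phosphorylation of SMAD1, SMAD5 and SMAD9, which enter the nucleus with SMAD4. Extracellular antagonists such as Noggin and Chordin hold the ligands away from the receptors, and SMAD6 and SMAD7 act inside the cell as feedback inhibitors. In the early foregut, BMP signals from the ventral mesenchyme are known to help the ventral endoderm to take on respiratory fate. Of the genes compared here, *Bmp1* differs in kind despite its name. It encodes an astacin metalloprotease that trims procollagens and cleaves Chordin, whereas the other 6 encode ligands of the TGF-beta superfamily.

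The labelled tissue was checked against its markers. The foregut endoderm genes *Foxa2* and *Epcam* had RMA values (log2 signals) of 8.95 to 9.53 and 9.69 to 10.18 on the 4 arrays, and the mesenchyme genes *Foxf1* and *Barx1* of 9.10 to 9.59 and 10.41 to 10.85. *Nkx2-1*, the defining gene of respiratory endoderm, lay at only 5.03 to 5.25. Of 8 endoderm genes *Shh* was higher ventrally and *Sox17* dorsally, and of 8 mesenchyme genes *Wnt2* and *Hand2* were higher ventrally. *Sox2* (0.57, adjusted p = 0.0822 from limma) and *Tbx4* (-0.94, adjusted p = 0.0633 from limma) did not pass. The mesenchyme genes *Foxf2* and *Tbx4* were dimmer than *Foxf1* and *Barx1*, at 6.04 to 6.76 and 5.48 to 6.90. Other tissues moved with the cut. Of 10 cardiomyocyte genes 9 were higher ventrally and *Nppa*, below the 40th percentile of every array, did not pass, with a mean level of the list of 6.17 and 6.23 dorsally and 9.77 and 9.48 ventrally. Of 8 hepatic genes 3 were higher ventrally, with mean levels of 5.73 and 5.75 against 6.87 and 6.63. All 5 measured neural crest genes were higher dorsally, with mean levels of 8.16 and 8.35 against 5.85 and 5.80. Of 5 mesothelium genes *Wt1*, *Upk3b* and *Aldh1a2* were higher dorsally, by 2.96, 2.56 and 0.996, and the list lay at 8.15 and 8.08 against 6.96 and 6.78. Of 5 somite genes *Meox1* (2.01), of 4 measured blood genes *Alas2* (1.19) and of 5 neural tube genes *Neurod1* (0.99) were also higher dorsally. The other genes of these lists did not pass, and the medians of the lists were 0.19, 0.78 and 0.04. Over all genes, 2.18% were called higher dorsally by their brightest probe set. The part of these tissues in the differences of the BMP genes was not tested.

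Differences were tested in 1 limma fit over 45037 probe sets, and a probe set was called different at an adjusted p under 0.05. Of the 13 BMP probe sets 3 were higher ventrally, 1 each for *Bmp4*, *Bmp6* and *Bmp5*, where 1.33% of all probe sets were called higher ventrally. None of the 13 was called higher dorsally by limma, where 2.45% of all were, and none had an unadjusted p under 0.05 in that direction, which 8.73% of all probe sets had. The median difference over the 13 was -0.40 (dorsal minus ventral, log2) and that over all probe sets was 0.01. Both ventral arrays lay above both dorsal arrays for 9 of the 13, against 18.6% of all probe sets. Both dorsal arrays lay above both ventral arrays for 1, against 25.2%. The 13 probe sets belong to 7 genes, with 3 each for *Bmp1*, *Bmp5* and *Bmp7*, so they are not independent of each other.

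**Figure D1:**
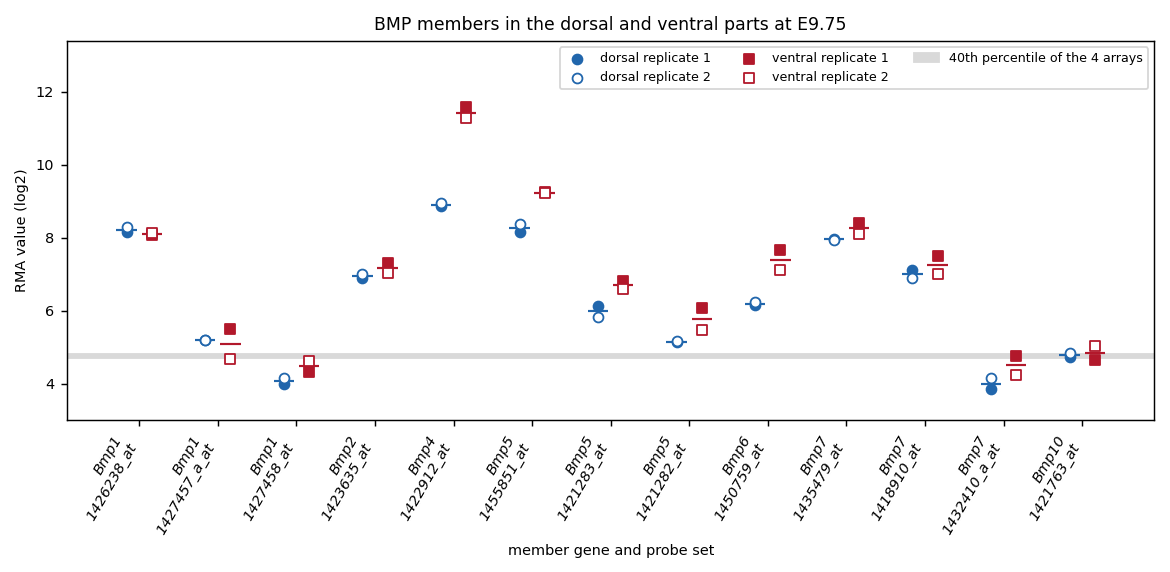
RMA values (log2, vertical axis) of the 13 probe sets of the 7 BMP genes (horizontal axis), with 1 point per array (blue circles dorsal, red squares ventral, filled for replicate 1, open for replicate 2), a bar at the mean of 2 arrays and a grey band over the 40th percentiles of the 4 arrays. *Bmp4* rises from about 8.90 dorsally to 11.43 ventrally, and *Bmp10* stays at the grey band in both parts.

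*Bmp4*, the BMP ligand best known from the ventral foregut mesenchyme and lung bud, was 5.77-fold higher ventrally. Its only probe set, 1422912_at, read 8.86 and 8.95 in the dorsal samples, whereas the ventral samples read 11.58 and 11.28. The parts were thus separated by 2.34 between the nearest arrays, while the arrays of a part lay at most 0.29 apart. The log2 difference, dorsal minus ventral, was -2.53 (standard error 0.16, 95% interval -2.90 to -2.16, n = 2 arrays per part, limma adjusted p = 9.6e-05). It was the 67th lowest of the 45037 differences. The arrays numbered 1 gave -2.72 by themselves, and those numbered 2 gave -2.34. With so few arrays the smallest two-sided p of an exact permutation test is 0.333, so that test was not used for single probe sets.

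*Bmp6*, a ligand of the same subgroup as *Bmp5* and *Bmp7*, was 2.31-fold higher ventrally. On its single probe set the dorsal samples read 6.15 and 6.24 and the ventral samples 7.68 and 7.13. Both ventral values exceeded the dorsal ones, by 0.89 or more, but the ventral arrays differed from each other by 0.55. The log2 difference was -1.21 (standard error 0.20, 95% interval -1.66 to -0.75, n = 2 arrays per part, limma adjusted p = 0.0128). Without ventral replicate 1 it was -0.93 and did not pass (adjusted p = 0.0528 from limma), and the alternatives gave adjusted p between 4.23e-09 and 0.0528.

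*Bmp5* was measured by 3 probe sets, and all 3 had higher values on both ventral arrays than on either dorsal array. The brightest, 1455851_at, read 8.15 and 8.37 dorsally and 9.25 and 9.22 ventrally. This was a 1.97-fold ventral excess and a log2 difference of -0.98 (standard error 0.15, 95% interval -1.33 to -0.62, n = 2 arrays per part, limma adjusted p = 0.0104). The second, 1421283_at, read 6.14 and 5.83 dorsally and 6.82 and 6.58 ventrally, a difference of -0.72 that did not pass (adjusted p = 0.0667 from limma). The third, 1421282_at, read 5.14 and 5.17 dorsally and 6.08 and 5.46 ventrally, a difference of -0.62 (adjusted p = 0.210 from limma). The dimmer the probe set, the smaller was the difference in these 3. The call of the brightest was lost without dorsal replicate 1 (-0.87, adjusted p = 0.119 from limma), without ventral replicate 1 (-0.96, adjusted p = 0.0590) and without ventral replicate 2 (-0.99, adjusted p = 0.0974), while the alternatives gave adjusted p between 5.07e-06 and 0.119.

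The sequences before the start sites of the members that were higher ventrally are shown to set them side by side, with that of *Bmp10*, which stayed low in both parts. RefSeq promoters of GRCm38.p6 matched 4 of the 7 genes, and the 250 bases before the start site are given 5′ to 3′ on the strand of the gene. Capitals mark matches on either strand to the motifs searched. These were AGATAA, which zinc finger factors such as GATA4 bind, the forkhead motif TGTTTAC, the T-box motif AGGTGTGA, the motif CTTTGAT of TCF and LEF factors, the SMAD motif GGCGCC, the GLI motif TGGGTGGTC, the E-box CACGTG, the promoter box TATAAA and the GC box GGGCGG.
*Bmp4* (chr14:46390670-46390919, minus strand): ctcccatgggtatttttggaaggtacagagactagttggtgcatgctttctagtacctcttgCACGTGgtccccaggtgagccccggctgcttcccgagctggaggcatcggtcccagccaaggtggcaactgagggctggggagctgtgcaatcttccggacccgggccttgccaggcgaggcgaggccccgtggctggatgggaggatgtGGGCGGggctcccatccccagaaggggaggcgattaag
*Bmp5* (chr9:75775115-75775364, plus strand): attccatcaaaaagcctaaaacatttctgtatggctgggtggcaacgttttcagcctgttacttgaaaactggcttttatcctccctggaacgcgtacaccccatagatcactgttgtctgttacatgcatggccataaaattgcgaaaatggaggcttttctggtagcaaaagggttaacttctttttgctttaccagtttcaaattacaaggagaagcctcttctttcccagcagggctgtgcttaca
*Bmp6* (chr13:38345466-38345715, plus strand): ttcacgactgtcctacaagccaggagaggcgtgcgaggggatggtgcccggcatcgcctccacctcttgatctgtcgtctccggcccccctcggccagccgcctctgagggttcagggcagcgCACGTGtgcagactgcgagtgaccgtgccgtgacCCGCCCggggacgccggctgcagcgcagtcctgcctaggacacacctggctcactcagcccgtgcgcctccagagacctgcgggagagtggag
*Bmp10* (chr6:87428744-87428993, plus strand): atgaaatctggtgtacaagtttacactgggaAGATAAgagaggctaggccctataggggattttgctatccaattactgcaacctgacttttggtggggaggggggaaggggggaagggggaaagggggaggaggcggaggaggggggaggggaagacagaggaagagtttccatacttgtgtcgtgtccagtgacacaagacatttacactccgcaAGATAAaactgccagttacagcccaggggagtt

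The windows of *Bmp4* and *Bmp6* each held 1 CACGTG, a motif found in 6.02% of the 32851 promoter windows of this length, and 1 GGGCGG, found in 32.7%. In *Bmp4* these began 188 and 38 bases before the start site, and in *Bmp6* 127 and 93 bases before it. The *Bmp5* window matched none of the motifs, and that of *Bmp10* held AGATAA at 219 and 33 bases before the start, a motif found in 9.99% of windows. G and C made up 63.2% of the *Bmp4* window, 68.8% of that of *Bmp6*, 42.8% of that of *Bmp5* and 52% of that of *Bmp10*. At least as much was found in 20.8%, 11%, 82.1% and 51.6% of all windows, so the members that were higher ventrally did not share a base composition. A match is only a run of letters in this window and was not measured as a binding site.

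*Bmp7*, a ligand of epithelia and mesenchyme in many organs, did not pass the test with any of its 3 probe sets. The brightest, 1435479_at, read 7.97 and 7.94 in the dorsal part against 8.41 and 8.11 in the ventral part, which is a difference of -0.31 (95% interval -0.68 to 0.06, adjusted p = 0.474 from limma). The ventral arrays lay above the dorsal ones by 0.15 or more, but 0.29 apart from each other. For 1418910_at the dorsal values were 7.12 and 6.91, ventral replicate 1 read 7.49 and ventral replicate 2 fell between the dorsal values, so the parts overlapped (difference -0.23, 95% interval -0.68 to 0.21). The dim probe set 1432410_a_at, at 3.86 and 4.15 against 4.77 and 4.25, did not exceed the 40th percentile on 2 arrays. Its difference of -0.50 was -0.90 between the arrays numbered 1 but -0.10 between those numbered 2.

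*Bmp2*, the closest relative of *Bmp4*, read 6.89 and 7.02 in the dorsal samples, against 7.30 and 7.02 in the ventral ones. The highest dorsal and lowest ventral arrays were nearly equal, and the difference was -0.21 (95% interval -0.58 to 0.16, adjusted p = 0.650 from limma). The lower end of the interval of *Bmp4* was a 4.45-fold ventral excess. The difference between both genes was not itself tested.

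*Bmp10*, a ligand known from the trabecular myocardium of the embryonic heart, was near the 40th percentile of every array. Its values were 4.73 and 4.85 dorsally and 4.65 and 5.03 ventrally, and the ventral values lay on both sides of the dorsal ones. The log2 difference was -0.05 (95% interval -0.45 to 0.34, adjusted p = 0.934 from limma). In the same ventral samples the cardiomyocyte genes *Myh6* and *Tnnt2* were at 10.07 and 10.05 and at 11.46 and 11.14. *Myh7* and *Nppa*, of the same list, were lower there, at 6.25 and 6.20 and at 4.07 and 4.23. The part of heart tissue in the level of *Bmp10* was not tested.

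The protease gene *Bmp1* did not pass the test, and its 3 probe sets differed in sign. With 1426238_at the values were 8.16 and 8.29 dorsally and 8.08 and 8.12 ventrally, a difference of 0.12 (95% interval -0.22 to 0.46, adjusted p = 0.790 from limma). This was the only BMP probe set for which both dorsal arrays exceeded both ventral arrays, by 0.03 at the nearest. The probe set 1427457_a_at was equal on both dorsal arrays, and the ventral arrays, at 5.50 and 4.67, lay above and below that level. The dim 1427458_at, which like the dimmest *Bmp7* probe set did not exceed the 40th percentile on 2 arrays, differed by -0.40 (adjusted p = 0.324 from limma).

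**Figure D2:**
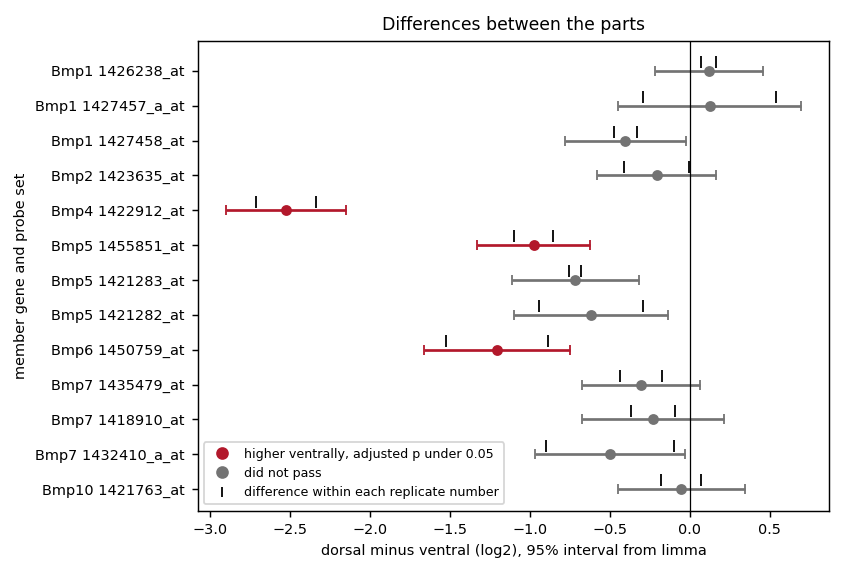
Dorsal minus ventral difference (log2, horizontal axis) of each of the 13 probe sets (vertical axis) with its 95% interval from limma, red where the adjusted p was under 0.05, and black ticks for the difference within each replicate number. The intervals of *Bmp4*, *Bmp6* and the brightest *Bmp5* probe set lie furthest below 0, and those of *Bmp2* and *Bmp10* include 0.

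The genes were then ordered by the level of their brightest probe set within each part. Probe sets bind their targets unequally and the values are not per length of transcript, so this is an order of array signals and not of mRNA amounts. In the dorsal part *Bmp4* came first at 8.86 to 8.95, followed by *Bmp5* at 8.15 to 8.37 and *Bmp1* at 8.16 to 8.29, which overlapped. *Bmp7* (7.94 to 7.97), *Bmp2* (6.89 to 7.02), *Bmp6* (6.15 to 6.24) and *Bmp10* (4.73 to 4.85) followed, each apart from the next. In the ventral part *Bmp4* again came first at 11.28 to 11.58 and *Bmp5* next at 9.22 to 9.25. *Bmp7* (8.11 to 8.41) and *Bmp1* (8.08 to 8.12) overlapped there, as did *Bmp6* (7.13 to 7.68) and *Bmp2* (7.02 to 7.30), and *Bmp10* was last. On the dorsal arrays 82.0% and 82.7% of all probe sets lay at or below *Bmp4*, and ventrally this share was 96.4% and 96.2%. For *Bmp6* these shares were 58.0% and 59.0% dorsally and 72.1% and 69.4% ventrally. *Bmp6* was thus below *Bmp2* dorsally, and the order of that pair was not resolved ventrally.

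**Figure D3:**
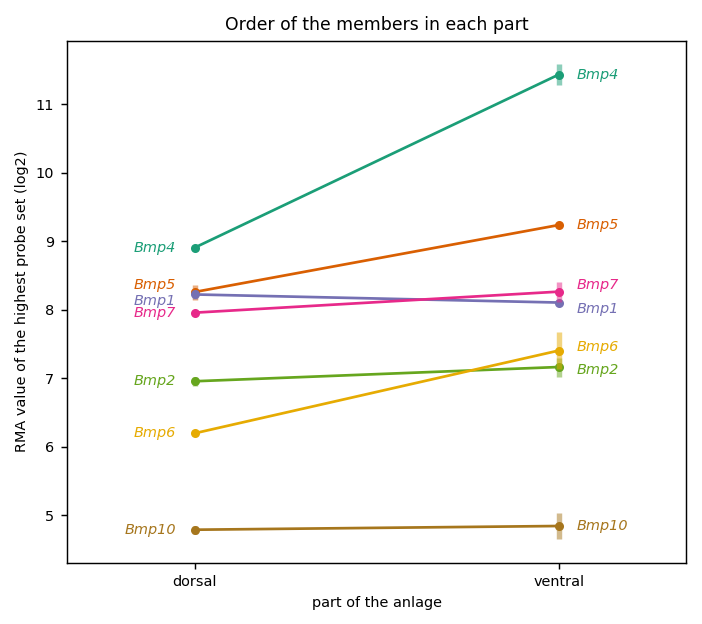
RMA value of the brightest probe set of each of the 7 genes (log2, vertical axis) in the dorsal and ventral parts (horizontal axis), with points at the mean of 2 arrays joined by a line and a thick bar from the lower to the higher array. *Bmp4* is highest and *Bmp10* lowest in both parts, and the lines of *Bmp6* and *Bmp2* cross.

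The genes whose values over the 4 arrays, centred on their mean, lay closest to those of a called member were found by their root mean square distance, among probe sets above the 40th percentile on at least 2 arrays. The measure compares single probe sets, which need not be the brightest of their gene. For *Bmp4* they were *Afp* (distance 0.08 on the log2 scale), the fetal plasma protein gene, *Shh* (0.09), the hedgehog ligand gene of the ventral endoderm, and the myelin protein gene *Pmp22* (0.09). Their differences were -2.62, -2.66 and -2.37. The match of *Afp* is that of 1416646_at, and its brightest probe set, 1416645_a_at, differed by -3.50. For *Bmp5* the closest were *Lpar4* (0.03), *Igf2r* (0.03), the receptor that clears IGF2, and *Lmo3* (0.04). *Lmo3* met the filter through the ventral arrays alone, at percentiles 50.2 and 49.1 against 35.3 and 38.4 dorsally. For *Bmp6* they were *Rmdn2* (0.02), *Npc1* (0.02), a cholesterol transporter gene of the lysosome, and *Pdlim5* (0.03). The distances rest on 4 arrays, and the match with *Bmp6* includes the gap between the ventral arrays.

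Other genes of the pathway were taken from 6 lists with 74 genes, also chosen with earlier results of these data known. The list of other ligands also held TGF-beta superfamily genes outside the BMP group, such as *Nodal* and *Inhba*. They are counted here with the pathway genes. Of the 74 genes, 68 had a probe set with 1 symbol, and each gene was represented by its brightest probe set. On that basis 2.02% of all 18193 genes were called higher ventrally and 2.18% higher dorsally, with a median difference of 0.02. Of the 68 genes, 11 were higher ventrally and 3 dorsally, and 54 did not pass.

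None of 11 other ligands was called in either direction by limma, and none had an unadjusted p under 0.05. The differences of this group, which holds *Bmp8a*, *Bmp8b*, *Gdf2*, *Gdf5*, *Nodal* and *Inhba* among others, ran from -0.40 to -0.02 with a median of -0.15. They were dim, with 4 of the 11 below the 40th percentile on all arrays and 0 left by a filter at the 60th, so the count says little about these ligands. *Bmp3*, *Gdf1*, *Gdf6* and *Gdf7* were not among the genes named by the annotation used here.

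Of 10 receptors and coreceptors, none was higher ventrally by limma (1 at an unadjusted p under 0.05, *Acvr1*, -0.53) and 1 was higher dorsally (2 at an unadjusted p under 0.05, with *Rgma*, 0.64). The median was 0.06. The type I receptor gene *Bmpr1a* read 11.86 and 11.89 in the dorsal samples against 11.96 and 11.73 (difference 0.03, standard error 0.16). For the type II receptor gene *Bmpr2* they were 11.58 and 11.59 against 11.98 and 11.85 (difference -0.33, adjusted p = 0.377 from limma). The coreceptor gene *Rgmb* was the one that differed, at 6.86 and 6.95 dorsally and 5.93 and 5.22 ventrally (difference 1.33, adjusted p = 0.0153 from limma), and 2 of its 6 probe sets passed, with a difference of 0.71 averaged over them all. It did not pass without ventral replicate 2 (0.97, adjusted p = 0.0683) or with the values quantile-normalized once more (1.31, adjusted p = 0.0743), the highest of its alternatives, of which the lowest was 5.32e-11.

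Among 17 antagonists and other binding proteins, 2 were higher ventrally and 1 dorsally by limma, with a median of -0.07. At an unadjusted p under 0.05, 2 were higher dorsally, with *Grem1* (0.67). *Bmper*, which encodes a secreted protein of the chordin type that binds BMP4, was at 7.52 and 7.15 dorsally and 9.46 and 9.18 ventrally (difference -1.98, adjusted p = 0.000671 from limma). *Bambi*, which encodes a receptor-like protein without a kinase and is itself known as a BMP target, differed by -1.21 (adjusted p = 0.00591 from limma). The protease gene *Htra1* was higher dorsally by 0.73 (adjusted p = 0.0295 from limma). The classical antagonist genes *Nog* (3.76 and 3.80 against 4.06 and 4.15) and *Chrd* (5.63 and 5.80 against 5.70 and 5.70) did not pass, and *Nog* was dim on every array. *Bmper* was not called without ventral replicate 1 (-1.84, adjusted p = 0.0528) or ventral replicate 2 (-2.12, adjusted p = 0.0604), and *Htra1* lost its call whichever array was left out and with a trend in eBayes, with an adjusted p up to 0.346.

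Of 8 SMAD genes and SMAD ubiquitin ligases, the 2 inhibitory SMADs were higher ventrally and none was higher dorsally by limma or at an unadjusted p under 0.05. *Smad6* was at 8.79 and 8.77 dorsally and 10.50 and 10.04 ventrally (difference -1.49, adjusted p = 0.00325 from limma). *Smad7* differed by -0.97 (adjusted p = 0.0197 from limma), but not past the threshold without dorsal replicate 1 (-0.96, adjusted p = 0.0520) or ventral replicate 1 (-0.77, adjusted p = 0.0546). The genes of the signal-transducing SMADs *Smad1*, *Smad5* and *Smad4* had differences of 0.06, 0.31 and 0.20, and none passed.

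Of 14 genes listed as targets, 6 were higher ventrally and none dorsally by limma or at an unadjusted p under 0.05, and the median was -0.53. The homeobox genes *Msx1* and *Msx2* differed by -2.17 and -1.42 (adjusted p = 0.000142 and 0.00353 from limma), and *Id2*, which encodes an inhibitor of bHLH factors, by -1.07 (adjusted p = 0.00537 from limma). *Id1* (-0.47) and *Id3* (-0.55) did not pass. The other called genes were *Tbx20* (-4.68), *Gata4* (-3.05) and *Nkx2-5* (-2.90), which encode transcription factors of the heart field, so they moved with the cardiomyocyte genes above, and the part of heart tissue in them was not tested. Probe sets of a gene differed in size, with *Tbx20* from -4.68 to -0.70 (2 of 3 called), *Gata4* from -3.05 to -1.20 and *Msx1* from -2.17 to -0.84. *Msx2* ran from -1.42 to -1.12 (1 of 2 called). Averaged over probe sets *Tbx20*, *Gata4*, *Msx1* and *Msx2* differed by -2.70, -2.12, -1.51 and -1.27. *Id2* was not called without ventral replicate 1 (-1.06, adjusted p = 0.0508) or ventral replicate 2 (-1.08, adjusted p = 0.0612).

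Among 8 genes for the processing of ligands and of the substrates of BMP1, 1 was higher in each part by limma. At an unadjusted p under 0.05, 3 were higher dorsally, with *Pcsk5* (0.49) and *Pcolce2* (0.64). *Furin*, the convertase that cleaves BMP precursors, differed by -0.72 (adjusted p = 0.0368 from limma), and its call was lost whichever array was left out, with adjusted p from 0.0639 to 0.561. *Pcolce*, which encodes an enhancer of the procollagen C-proteinase activity of BMP1, was higher dorsally at 9.62 and 9.79 against 7.97 and 7.71 (difference 1.87, adjusted p = 0.000479 from limma). *Tll1* and *Tll2*, which encode the tolloid relatives of BMP1, lay between 3.26 and 3.86 on all arrays.

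**Figure D4:**
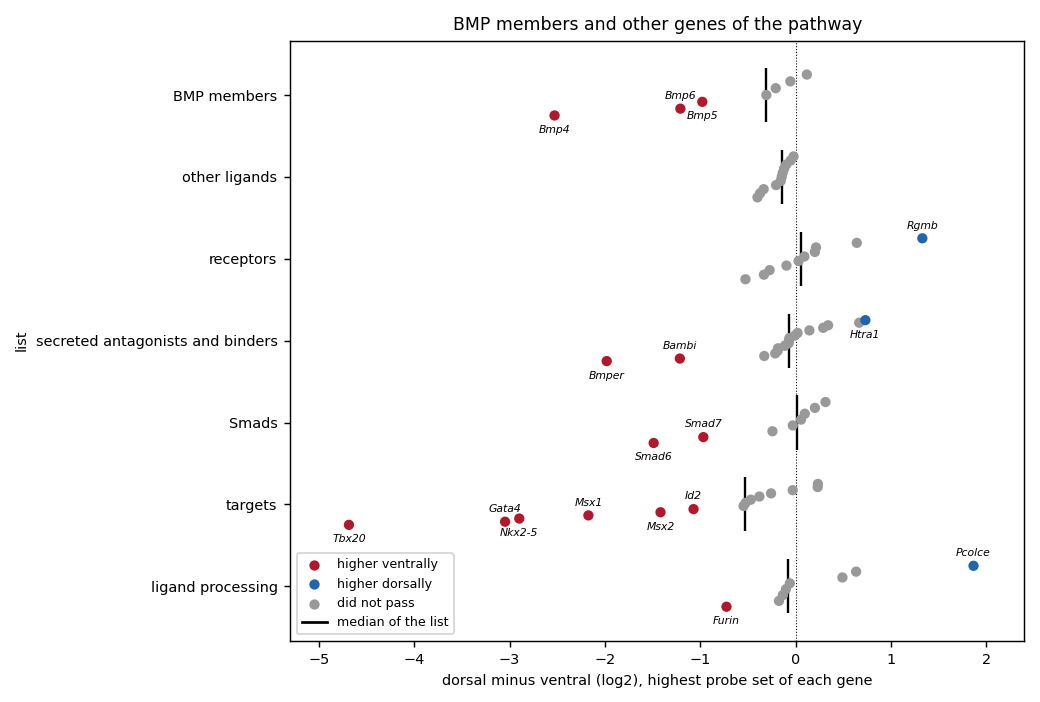
Dorsal minus ventral difference (log2, horizontal axis) of the brightest probe set of each gene, for the 7 BMP genes and the 6 lists of other pathway genes (vertical axis), where each point is a gene, its colour gives the limma call and a black line marks the median. The targets have a median of -0.53, the other ligands lie between -0.40 and -0.02, and *Rgmb*, *Htra1* and *Pcolce* are the genes called higher dorsally.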

How the data were processed

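RNA of the dorsal and ventral parts was labelled in 2 cycles and hybridised to Affymetrix mouse arrays. The authors summarised the scans by RMA, per the submitters' processing notes, and deposited 1 value per probe set, read here as log2 from their range of 2.36 to 15.02, since the scale was not stated. RMA is meant to set the quantiles of the arrays alike, so a shift of all genes cannot be seen. The deposited values were not fully alike, with upper quartiles of 8.00 and 8.00 dorsally and 8.02 and 7.75 ventrally. The number of arrays limits the precision, and no detection calls were used.

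GEO's annotation of the platform, possibly outdated, supplied the gene symbols. All 45037 probe sets other than 64 controls were fitted in R 4.3.3 with limma 3.58.1 (lmFit, then eBayes), two-sided, with no filter and no term for the replicate number, and p-values were adjusted by Benjamini-Hochberg. The script was tested on simulated data. The filter was left out so that every member was tested, and 11 of the 13 member probe sets passed a filter at the 40th percentile on 2 arrays. For lists, the brightest probe set stood for a gene, and no set test was run. The members and the lists were chosen with earlier results of these data known. Named genes are all members, called list genes, up to 5 per list and direction, and the 3 nearest genes of each called member, with *Id2*, *Acvr1*, *Rgma* and the uncalled genes and markers given as examples named after their values were seen. Promoter sequences are RefSeq's.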

Additional observations from a re-analysis of the deposited data

How the results depend on the processing

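The ventral excess of *Bmp4* passed under each of the 16 alternatives, with differences from -2.67 to -2.38 and adjusted p from 5.86e-40 to 0.0252 by limma. The 4 calls lost among the members are the 3 of *Bmp5* and the 1 of *Bmp6* given above, each without 1 array, and the other values of the members under the alternatives stayed on their side of the threshold in 177 cases and gained a call in 6, all of *Bmp5*. Members called higher ventrally numbered 5 with values below the 40th percentile raised to it, as both other *Bmp5* probe sets then passed, and 1 to 3 without 1 array. None was called higher dorsally under any alternative. With 1 array left out the remaining array of that part is assumed to vary like the other part. The same *Bmp4* difference of -2.53 had a limma adjusted p of 9.6e-05 in the main fit. With 1 probe set per gene and the filter at the 40th percentile it was 4.12e-10. The lowest adjusted p-values of the alternatives thus depend on the setting and do not measure the strength of a difference. The second *Bmp5* probe set also passed by limma with a filter at the 40th percentile (adjusted p = 0.0378) or the 60th (adjusted p = 0.0141). It met the filter at the 60th through the ventral arrays alone, at percentiles 64.8 and 64.1 against 57.9 and 54.6 dorsally. *Bmp6* met it the same way, so a call under that filter is no separate support for either.

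The labels pair the arrays by replicate number alone, and what the numbers stand for was not stated. The poly-A control probe sets had means of 7.58 dorsally and 7.82 ventrally on the arrays numbered 1. On those numbered 2 the means were 9.76 and 9.66, so these controls differed by number more than by part. Deviations of arrays with the same number correlated at 0.12 over probe sets. With the replicate number as a block, 5 member probe sets were higher ventrally, 6 pathway genes were higher dorsally, and 1186 of all probe sets were higher ventrally and 2258 dorsally, against 600 and 1103 without it. With low values raised to the 40th percentile these were 1051 and 2253, with 7 pathway genes dorsally. With 1 value per gene and a filter, 629 of 13138 genes were higher dorsally, with 6 of 57 pathway genes dorsally. With probe sets averaged by gene, 390 of 18193 genes were higher ventrally and 384 dorsally. By the brightest probe set in the main fit these were 367 and 396 of 18193. Such counts of genes cannot be set against the counts over all probe sets, since fewer features were tested. Without 1 array, 287 to 462 of all probe sets were higher ventrally and 195 to 674 dorsally, and 7 to 10 pathway genes were higher ventrally and 1 to 2 dorsally. With the values quantile-normalized once more, 641 of all probe sets were higher ventrally and 821 dorsally. The causes of these shifts were not tested. With 2 arrays per part, member probe sets at -0.50, -0.62 and -0.72 were not called.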
